A study of Mus musculus with 4 samples.

Results

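The genes described here encode receptors and adhesion proteins of the leukocyte surface: C-type lectins, Siglecs, Fc gamma receptors, paired immunoglobulin-like receptors, TREM and CD300 receptors, Toll-like receptors, formyl peptide receptors, integrins with their ligands, killer cell lectin-like receptors and other molecules with a CD number. They were chosen by symbol alone, from the start of the name, and 7 genes of T cells, antigen presentation and eosinophils that match the pattern (Cd3d, Cd3e, Cd3g, Cd5, Cd74, Itgae and Siglecf) were set aside. All 7 are in the authors' deposited table, and the family counts below leave them out. The choice gave 70 genes of the 4121 in the authors' deposited table. The name pattern also takes in surface proteins of epithelium and vessels, the adaptor protein Cd2ap and the secreted lectin Clec3b, so the set is not purely leukocytic.

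The tissue was inflamed distal colon, and the mice were C57BL/6 animals 8 weeks old. Its RNA was sequenced in 2 samples from Elf4-/- mice (labelled Elf4-KO) and 2 from wild-type mice. Elf4 is a transcription factor of the Ets family. All mice, of both genotypes, were given dextran sulfate sodium (DSS) at 3%, which damages the gut lining and so brings on colitis, with the colon collected on day 6. How the allele was made and whether samples are from separate animals is left unstated by the labels.

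Recognition receptors of myeloid cells bind sugars, lipids, nucleic acids or antibody on microbes and dying cells. Most pass the signal through paired adaptors with activating motifs or restrain it through inhibitory motifs in their own tails. Integrins are pairs of an alpha and a beta chain that hold cells to matrix or to other cells. Leukocyte integrins serve arrest and migration in inflamed tissue, and epithelial integrins anchor the intestinal lining to its basement membrane.

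The table holds 1 FPKM value per gene and genotype (fragments scaled by transcript length and by library), so there is no value per sample, no SD and no n behind any value, and the read depth is unknown. It lists only genes that passed the authors' own test, and no listed gene differs by less than about 2-fold. Rose and fell rest on that test. Genes that are not listed were not analysed here. They may differ by less than that fold, or by more without having passed the authors' test. Elf4 itself was at 3.51 FPKM in the knockout, against 16.4 FPKM in wild type. Among markers of other cells, 10 of 10 pan-epithelial genes were lower in the knockout and 9 of 11 listed neutrophil genes were higher. In bulk tissue, more cells of a type and more RNA per cell cannot be told apart. FPKM values are also relative to the library, so lower values of abundant genes can raise those of others. The pan-epithelial genes summed to 553 FPKM in the knockout and 7294 FPKM in wild type. The part of this scaling in the other values was not tested. In the authors' deposited table the lowest q is 0.000372, which 50 of the 70 members share, and it applies to every gene below that has no q beside it.

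Receptors of neutrophils and macrophages were mostly higher in the knockout colon, and surface proteins of epithelium and of T and NK cells were mostly lower. Of the 70 members, 49 (70%) rose and 21 (30%) fell, beside 48.0% and 52.0% of all listed genes. A difference of at least 4-fold was reached by 19 members that rose and 8 that fell, beside 12.9% and 24.5% of all listed genes. The median log2 ratio of knockout over wild type, after adding 1 to each FPKM value, was 1.18 for the members and -0.76 for the whole table. Folds ranged from 2.05 to 11.7 among members that rose, with a median of 3.12, and from 2.31 to 9.85 among those that fell, with a median of 3.46. The most abundant members differed between genotypes. In the knockout they were Cd14 (273 FPKM), Fcgr3 (193 FPKM) and Fcgr2b (176 FPKM), and in wild type they were Clec2h (483 FPKM), Cd38 (384 FPKM) and Itga6 (105 FPKM).

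**Figure D1:**
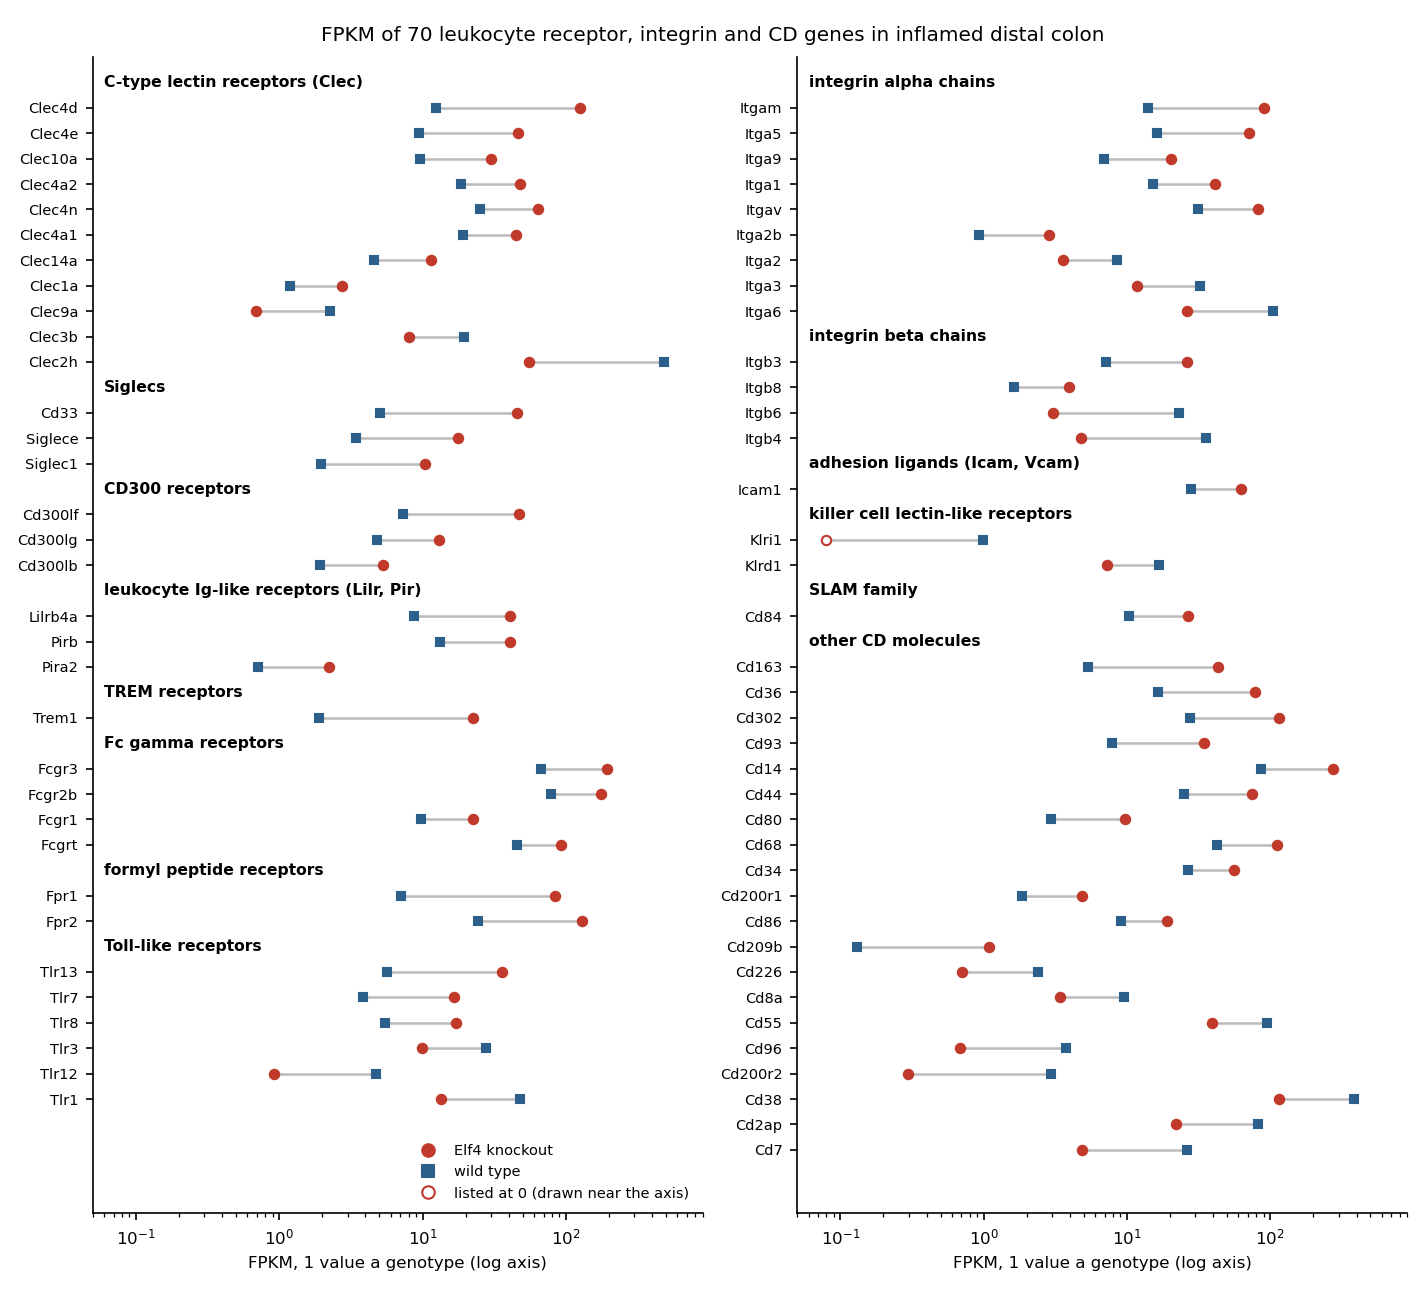
FPKM of each of the 70 members on a log axis, grouped by receptor family, with 1 value for the Elf4 knockout (circles) and 1 for wild type (squares). In the Siglec, CD300, Lilr and Pir, TREM, Fc gamma and formyl peptide families every listed member was higher in the knockout, and both listed killer cell lectin-like receptors were lower.

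The values for 12 members are uncertain, because their locus in the table was over 1.5 times as long as the annotated gene or held another protein-coding gene. These were Cd300lf, Cd34, Cd55, Cd7, Clec9a, Fcgrt, Fpr2, Icam1, Itga1, Itga9, Itgam and Lilrb4a. The labels do not say whether strand was kept. Without these members, 40 rose and 18 fell.

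Promoter sequence was compared because many members that rose are myeloid genes and Elf4 belongs to the Ets family, whose members bind a GGAA core. RefSeq windows on GRCm38, from 250 bases before to 50 bases after a start, were found for 52 of the 70 members, 37 that rose and 15 that fell. On either strand, GGAA was present in 37 of 37 windows of members that rose, 15 of 15 of those that fell and 96.0% of all 32851 windows. The longer GAGGAA, which contains it, was present in 22 of 37 windows of members that rose (59.5%), in 5 of 15 of those that fell (33.3%) and in 28.3% of all windows. GGAAGT, which can overlap GAGGAA, was present in 40.5%, 20.0% and 23.8%. Among the neutrophil, monocyte and macrophage receptors, 18 of 23 windows held GAGGAA, and Tlr1, which fell, is among them. Outside that list, the members that rose and held GAGGAA were Clec14a, Itga5, Itgav, Itga2b and Cd44. Those that rose without it were Fcgrt, Icam1, Itga9, Itga1, Itgb8, Cd36, Cd302, Cd80, Cd34 and Cd209b. The higher share among members that rose thus lay mostly in the myeloid list. These counts are descriptions, chosen after the values were seen, and related genes such as Pirb and Pira2 are not independent. Windows of other myeloid genes were not compared. The counts therefore do not separate myeloid genes in general from targets of Elf4, and a part of Elf4 was not tested. The window lay over 1000 bases from the annotated start for 6 members.

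The 5 windows with the most matches, 3 each, are shown beside that of Clec2h, the member with the deepest fall in log2 ratio. They are Clec4d (chr6:123261857-123262156, plus strand), Itgam (chr7:128062390-128062689, plus strand), Siglece (chr7:43660112-43660411, minus strand), Pirb (chr7:3720333-3720632, minus strand), Pira2 (chr7:3845002-3845301, minus strand) and Clec2h (chr6:128662135-128662434, plus strand). Capitals mark GAGGAA or its reverse complement, and each sequence runs 5′ to 3′ along the gene.
Clec4d: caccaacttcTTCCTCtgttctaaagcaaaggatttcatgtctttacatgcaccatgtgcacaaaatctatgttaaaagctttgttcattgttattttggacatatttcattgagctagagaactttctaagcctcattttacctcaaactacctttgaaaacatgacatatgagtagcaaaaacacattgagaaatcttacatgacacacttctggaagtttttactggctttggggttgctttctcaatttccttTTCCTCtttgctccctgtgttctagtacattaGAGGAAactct
Itgam: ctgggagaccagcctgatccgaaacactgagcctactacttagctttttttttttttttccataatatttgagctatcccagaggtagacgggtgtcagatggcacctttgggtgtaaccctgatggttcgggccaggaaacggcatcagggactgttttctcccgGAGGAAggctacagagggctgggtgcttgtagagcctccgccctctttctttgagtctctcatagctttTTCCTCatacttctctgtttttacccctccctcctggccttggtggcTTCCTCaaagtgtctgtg
Siglece: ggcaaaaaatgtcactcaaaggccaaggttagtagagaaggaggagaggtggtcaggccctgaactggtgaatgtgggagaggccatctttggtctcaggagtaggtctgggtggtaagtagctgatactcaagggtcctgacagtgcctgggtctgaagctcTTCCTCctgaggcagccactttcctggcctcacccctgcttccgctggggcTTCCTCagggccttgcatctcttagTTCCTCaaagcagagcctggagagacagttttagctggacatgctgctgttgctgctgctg
Pirb: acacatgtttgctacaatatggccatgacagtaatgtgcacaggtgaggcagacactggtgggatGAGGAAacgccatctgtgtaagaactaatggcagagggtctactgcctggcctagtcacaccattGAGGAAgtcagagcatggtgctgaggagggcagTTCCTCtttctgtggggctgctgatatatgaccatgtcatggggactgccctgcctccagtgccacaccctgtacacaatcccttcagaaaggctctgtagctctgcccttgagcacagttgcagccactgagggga
Pira2: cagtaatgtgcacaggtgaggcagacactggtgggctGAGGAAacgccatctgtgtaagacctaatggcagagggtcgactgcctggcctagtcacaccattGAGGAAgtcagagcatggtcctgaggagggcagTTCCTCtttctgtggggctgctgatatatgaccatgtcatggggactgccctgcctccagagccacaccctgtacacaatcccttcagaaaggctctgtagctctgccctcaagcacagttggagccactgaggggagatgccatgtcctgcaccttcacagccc
Clec2h: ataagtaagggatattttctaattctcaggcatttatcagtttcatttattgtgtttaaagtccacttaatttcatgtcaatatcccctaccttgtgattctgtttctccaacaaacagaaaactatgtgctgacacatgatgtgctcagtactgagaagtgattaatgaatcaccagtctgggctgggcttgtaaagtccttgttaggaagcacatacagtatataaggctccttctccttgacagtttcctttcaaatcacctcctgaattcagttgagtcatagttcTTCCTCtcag

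In Itgam the matches began 84 and 15 bases before the start and 32 bases after it. In Siglece all 3 lay before the start, at 87, 36 and 11 bases. Clec4d had 1 match 240 bases before its start and the others 7 and 39 bases after it. The Pirb and Pira2 windows shared 264 identical bases when shifted against each other without gaps, and their 3 matches keep the same order and spacing. Clec2h, which fell, had 1 match, 40 bases after its start.

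Of 11 listed C-type lectin genes, 8 rose and 3 fell. The largest rise was in Clec4d, whose promoter is among those above and which encodes a partner of the lectin Mincle and stood at 126 FPKM in the knockout, against 12.5 FPKM in wild type (10.1-fold). Clec4e, the gene of Mincle, a receptor for microbial glycolipids and for dying cells, was at 46.3 FPKM in the knockout and 9.40 FPKM in wild type. Clec4n encodes Dectin-2, which binds fungal mannans, and was at 63.7 FPKM in the knockout and 25.0 FPKM in wild type. These activating lectins did not keep one proportion, since Clec4d was at 1.97 times the Clec4n level in the knockout and at 0.498 times in wild type. The inhibitory Clec4a2 was at 48.0 FPKM in the knockout, against 18.5 FPKM in wild type (q = 0.00156 in the authors' deposited table), and its relative Clec4a1 at 45.0 FPKM, against 19.1 FPKM. Clec10a, a galactose-binding lectin of macrophages and dendritic cells, was at 30.0 FPKM in the knockout, against 9.63 FPKM in wild type.

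The 5 listed Clec4 genes lie together on mouse chromosome 6 (chr6:122921848-123289870, GRCm38), and all 5 rose. Farther along the same chromosome, at chr6:129397297-129717132, 4 members of the natural killer gene complex moved in both directions. Clec9a, a receptor of cross-presenting dendritic cells for actin of dead cells, was at 0.692 FPKM in the knockout and 2.25 FPKM in wild type (q = 0.0164 in the authors' deposited table). Its locus in the table ends 8 bases before that of Clec1a, a lectin gene of endothelium and myeloid cells, which was at 2.73 FPKM in the knockout and 1.18 FPKM in wild type (q = 0.0176 in the authors' deposited table). Neighbours in this complex thus differed in direction, while the Clec4 neighbours did not. Across the set, 31 members lay within 500 kb of another member, in 13 groups, of which 9 moved in one direction. With 70% of all members rising, many neighbours would share a direction in any case, and a link to position was not tested. Some groups join genes of different families, such as Cd68 and Clec10a.

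Fewer lectin genes fell, and they included the most abundant member of all in wild type. Clec2h encodes a ligand of an NK cell receptor and is a gene of gut epithelium. It was at 55.3 FPKM in the knockout, against 483 FPKM in wild type (8.74-fold lower). Clec3b, encoding the secreted protein tetranectin, was at 8.07 FPKM in the knockout and 19.4 FPKM in wild type (q = 0.00954 in the authors' deposited table). With Clec2h included, the summed level of the lectin genes was lower in the knockout, at 437 FPKM against 605 FPKM in wild type, although most of them rose. Clec14a, an endothelial lectin gene, rose to 11.5 FPKM in the knockout, against 4.58 FPKM in wild type.

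Both inhibitory and activating immunoglobulin-like receptors rose. Of the Siglecs, receptors for the sialic acid of host glycans, all 3 members rose at least 4-fold. Siglecf, which is also listed, was set aside and is not counted. Cd33 was at 45.8 FPKM in the knockout and 5.05 FPKM in wild type, and the inhibitory Siglece, whose promoter is shown above, at 17.7 FPKM, against 3.46 FPKM. Siglec1, the sialoadhesin of macrophages, was at 10.5 FPKM in the knockout and 1.96 FPKM in wild type. Trem1, whose product amplifies Toll-like receptor signals in neutrophils and monocytes, showed one of the steepest rises of the set, to 22.4 FPKM in the knockout, against 1.91 FPKM in wild type (11.7-fold).

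The paired receptors of one family kept their proportion. Pirb, an inhibitory receptor for MHC class I, was at 41.1 FPKM in the knockout and 13.2 FPKM in wild type. Its activating counterpart Pira2 was far lower, at 2.21 FPKM in the knockout and 0.706 FPKM in wild type (q = 0.00992 in the authors' deposited table). The Pirb level was 18.6 times that of Pira2 in the knockout and 18.7 times in wild type. Their promoters, shown above, are alike and the genes are close copies of each other, so the split of reads between them is uncertain. Lilrb4a, which is inhibitory, was at 40.7 FPKM in the knockout and 8.67 FPKM in wild type, and it too has a close copy. The identifier given for Lilrb4a is named Gm49339 in the annotation, where a separate gene named Lilrb4a overlaps it. The gene behind this value is therefore uncertain. In the CD300 family, Cd300lf was at 46.8 FPKM in the knockout and 7.30 FPKM in wild type. Cd300lb was at 5.32 FPKM in the knockout and 1.93 FPKM in wild type (q = 0.00429 in the authors' deposited table), and Cd300lg, a gene of vascular endothelium, at 13.0 FPKM, against 4.80 FPKM.

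All 4 listed Fc gamma receptor genes rose, though none reached 4-fold. Fcgr3, an activating low-affinity receptor for IgG, was at 193 FPKM in the knockout and 67.1 FPKM in wild type. Fcgr2b, the inhibitory low-affinity receptor, was at 176 FPKM in the knockout and 79.0 FPKM in wild type. The ratio of Fcgr3 to Fcgr2b was 1.10 in the knockout and 0.849 in wild type, so the order of the pair differed between genotypes. Their coding regions outside the cell are similar, which makes the split of reads uncertain. Fcgr1, the high-affinity receptor, was at 22.6 FPKM in the knockout and 9.72 FPKM in wild type (q = 0.0186 in the authors' deposited table). Fcgrt, which recycles IgG and albumin in many cell types, was at 93.1 FPKM in the knockout and 45.4 FPKM in wild type (q = 0.00476 in the authors' deposited table).

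Both listed formyl peptide receptor genes rose. These receptors guide neutrophils toward peptides of bacteria and damaged mitochondria. Fpr1 had the highest fold of all members that rose, with 83.4 FPKM in the knockout and 7.10 FPKM in wild type (11.7-fold). Fpr2 was at 131 FPKM in the knockout and 24.3 FPKM in wild type, but its locus in the table was 13.7 times as long as the annotated gene and held Fpr3.

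Toll-like receptor genes split evenly, 3 higher and 3 lower, and their summed level hardly differed, at 94.2 FPKM in the knockout and 95.3 FPKM in wild type. All 3 that rose encode endosomal sensors of single-stranded or bacterial RNA. Tlr13, a sensor of bacterial ribosomal RNA, was at 36.1 FPKM in the knockout and 5.65 FPKM in wild type. The neighbours Tlr7 and Tlr8 on chromosome X were at 16.5 and 17.2 FPKM in the knockout, against 3.86 and 5.49 FPKM in wild type (q = 0.00891 for Tlr8 in the authors' deposited table). Of the 3 that fell, Tlr1 is the partner of Tlr2 in sensing lipopeptides. Tlr1 was the only listed gene of the neutrophil, monocyte and macrophage receptor list to fall. It was at 13.5 FPKM in the knockout, against 47.9 FPKM in wild type. Tlr3, the sensor of double-stranded RNA, was at 9.98 FPKM in the knockout and 27.7 FPKM in wild type (q = 0.000694 in the authors' deposited table). Tlr12, a sensor of parasite profilin, was at 0.919 FPKM in the knockout and 4.75 FPKM in wild type. Cd14, the co-receptor for lipopolysaccharide, rose to 273 FPKM in the knockout, against 86.5 FPKM in wild type. Of 20 genes of Toll-like receptor co-receptors and signalling, 3 were listed and all 3, Irak3, Nfkbia and Tnfaip3, are known to restrain the pathway. Irak3 was at 24.6 FPKM in the knockout and 4.32 FPKM in wild type (q = 0.000694 in the authors' deposited table). Nfkbia was at 253 FPKM in the knockout and 80.6 FPKM in wild type, and Tnfaip3 at 74.4 FPKM, against 30.3 FPKM.

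**Figure D2:**
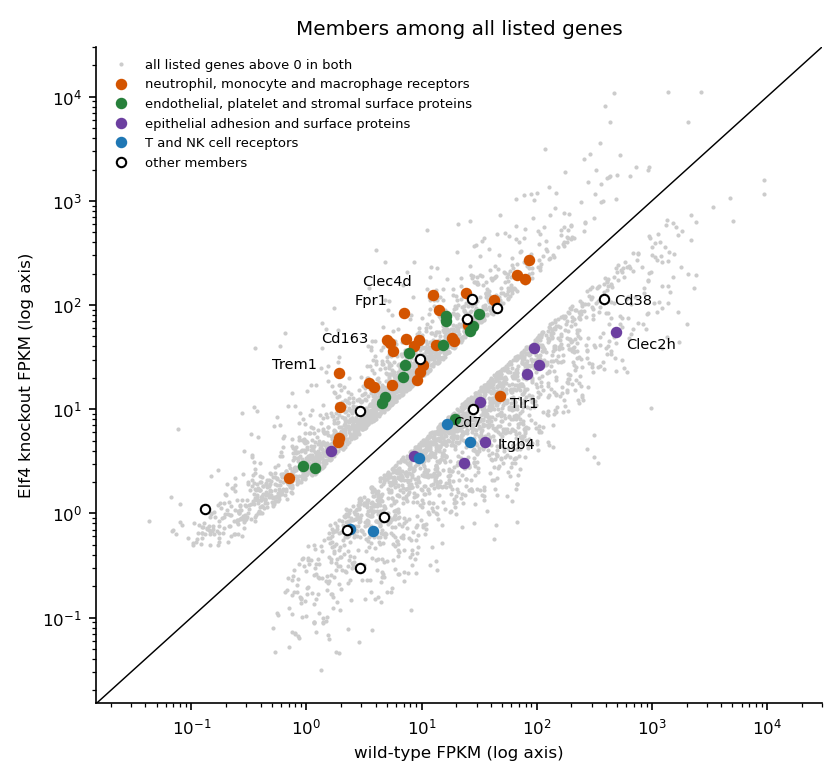
Knockout FPKM against wild-type FPKM on log axes, for members by lineage list (coloured or open circles) and all listed genes above 0 in both genotypes (grey), with the line of equality. The empty band along the line reflects the fold of at least 2 that every listed gene has. Genes of the myeloid receptor list lie above the line with Tlr1 as the exception.

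Integrin chains divided mostly by the cell type in which they are best known, with Itgb8 of the epithelial list as an exception. Of 9 alpha chains among the members, 6 rose and 3 fell, and of 4 beta chains, 2 rose and 2 fell. The alpha chain gene Itgae, which is also listed, was set aside and is not counted. Itgam, the CD11b chain of neutrophils and macrophages, was at 90.5 FPKM in the knockout and 14.1 FPKM in wild type (6.41-fold). Itga5, the fibronectin receptor chain, was at 70.8 FPKM in the knockout and 16.1 FPKM in wild type. Itgav, a chain of vitronectin and fibronectin receptors, was at 81.8 FPKM in the knockout and 31.4 FPKM in wild type. The collagen receptor chain Itga1 was at 41.1 FPKM in the knockout, against 15.3 FPKM in wild type. Itga9, which binds tenascin, was at 20.4 FPKM in the knockout, against 6.92 FPKM in wild type (q = 0.00792 in the authors' deposited table). The platelet pair Itga2b and Itgb3 rose together. Itgb3, also found on endothelium and macrophages, was at 26.4 FPKM in the knockout and 7.11 FPKM in wild type, and Itga2b at 2.85 FPKM, against 0.927 FPKM (q = 0.00792 for Itga2b in the authors' deposited table). Without the uncertain loci of Itgam, Itga1 and Itga9, the median log2 ratio of the alpha chains was -0.036, in place of 1.35.

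Most listed integrin chains of epithelium fell. The pair Itga6 and Itgb4 forms the laminin receptor of hemidesmosomes. Itga6 was at 26.4 FPKM in the knockout, against 105 FPKM in wild type, and Itgb4 at 4.79 FPKM, against 35.4 FPKM (7.39-fold lower). Itgb6, which pairs with Itgav on epithelium and activates TGF-beta, was at 3.05 FPKM in the knockout and 23.2 FPKM in wild type. Itgb8, another Itgav partner that activates TGF-beta, went the other way, at 3.95 FPKM in the knockout and 1.62 FPKM in wild type. Itga3, a laminin receptor chain, was at 11.7 FPKM in the knockout and 32.3 FPKM in wild type. The collagen receptor chain Itga2 was at 3.56 FPKM in the knockout and 8.56 FPKM in wild type, although its neighbour Itga1 on chromosome 13 rose. Itga5 was at 2.68 times the Itga6 level in the knockout and at 0.154 times in wild type, and Itgb3 at 8.67 times the Itgb6 level in the knockout and 0.307 times in wild type. These pairs were chosen after their values were seen. The order within each of these pairs differed between genotypes, while other pairs kept theirs, such as Itgav above Itgb6 and Itga1 above Itga2.

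**Figure D3:**
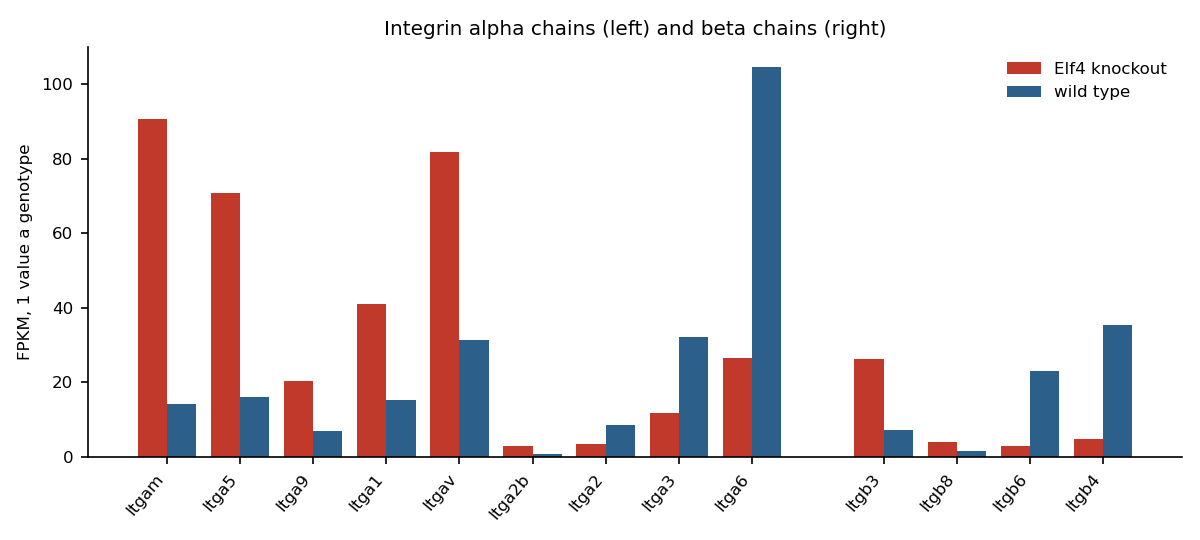
FPKM of the 13 integrin chains among the members, 1 value a genotype, with the Elf4 knockout as the left bar and wild type as the right bar of each pair. Itgae was set aside and is not drawn. Of the alpha chains drawn, Itgam, Itga5 and Itgav were the highest in the knockout, and Itga6 was the highest in wild type.

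Ligands and linkers of the integrins also moved in both directions. Of 18 ligand genes, 14 were listed, 9 higher and 5 lower. The ligands of matrix-receptor integrins Thbs1, Spp1 and Tnc were at 480.0, 61.2 and 160.5 FPKM in the knockout, against 45.2, 4.60 and 30.6 FPKM in wild type. Cdh1, encoding the epithelial adhesion protein E-cadherin, was at 20.8 FPKM in the knockout and 238 FPKM in wild type. The epithelial laminin chain Lama3 was at 3.12 FPKM in the knockout, against 20.6 FPKM in wild type. Lamb3, another epithelial laminin chain, was at 7.03 FPKM in the knockout and 35.2 FPKM in wild type (q = 0.0381 in the authors' deposited table). The laminin chain Lama5 went the other way, at 34.4 FPKM in the knockout and 8.74 FPKM in wild type (q = 0.00211 in the authors' deposited table), so the laminin genes did not move as one. Of 20 activator and linker genes, 6 were listed, 2 higher and 4 lower. Fermt1, the kindlin of epithelium, was at 1.11 FPKM in the knockout and 16.0 FPKM in wild type, while Fermt2, the kindlin of connective tissue, was at 76.2 FPKM, against 29.4 FPKM. The linkers Parvb and Tln2 were at 10.3 and 1.71 FPKM in the knockout, against 2.62 and 7.28 FPKM in wild type. Icam1, the ligand of leukocyte integrins on endothelium and epithelium, rose to 62.6 FPKM in the knockout, against 28.2 FPKM in wild type, in a locus that held Icam4 and Icam5.

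Among 20 other CD genes, 12 rose and 8 fell. Macrophage and scavenger genes were among the largest rises. Cd163, the macrophage receptor for hemoglobin bound to haptoglobin, was at 43.5 FPKM in the knockout and 5.34 FPKM in wild type (8.15-fold). Its level relative to Cd68, a lysosomal gene of macrophages, was 0.392 in the knockout and 0.126 in wild type. Cd68 itself was at 111 FPKM in the knockout and 42.4 FPKM in wild type, so the macrophage genes did not rise in one proportion. Cd36, which takes up fatty acids and binds thrombospondin, was at 78.5 FPKM in the knockout and 16.4 FPKM in wild type. Cd302, a lectin-like receptor of myeloid cells and other tissues, was at 115 FPKM in the knockout and 27.3 FPKM in wild type. Cd93, of endothelium and myeloid cells, was at 34.8 FPKM in the knockout and 7.84 FPKM in wild type. The hyaluronan receptor gene Cd44 also rose, to 74.0 FPKM in the knockout, against 25.0 FPKM in wild type. Cd34, of endothelium and progenitors, was at 56.2 FPKM in the knockout and 26.5 FPKM in wild type (q = 0.00156 in the authors' deposited table).

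The costimulatory ligands of antigen-presenting cells both rose. Cd80 was at 9.64 FPKM in the knockout and 2.94 FPKM in wild type (q = 0.000694 in the authors' deposited table). Cd86 was at 19.0 FPKM in the knockout and 9.08 FPKM in wild type (q = 0.00429 in the authors' deposited table). Cd86 was the higher of the pair in both genotypes. Cd84, a self-binding receptor of the SLAM family, was at 26.6 FPKM in the knockout, against 10.4 FPKM in wild type. The inhibitory receptor gene Cd200r1 was at 4.88 FPKM in the knockout and 1.86 FPKM in wild type (q = 0.00671 in the authors' deposited table). Its neighbour Cd200r2 had the highest fold of the members that fell and were above 0 in both genotypes. It was at 0.297 FPKM in the knockout and 2.93 FPKM in wild type (q = 0.00519 in the authors' deposited table). Cd209b, a lectin gene of marginal zone macrophages, was low in both, at 1.10 FPKM in the knockout and 0.130 FPKM in wild type (q = 0.0103 in the authors' deposited table).

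Genes of T and NK cell receptors fell, all 6 that were listed of 39 symbols in that list, where Cd244 and Cd244a are alternative names. Cd7 was at 4.89 FPKM in the knockout and 26.3 FPKM in wild type, in a locus 8.59 times as long as the annotated gene. Cd8a, the co-receptor of cytotoxic T cells, was at 3.41 FPKM in the knockout and 9.49 FPKM in wild type. Cd96 and Cd226 encode receptors that share ligands on target cells. Cd96 was at 0.684 FPKM in the knockout and 3.76 FPKM in wild type, and Cd226 at 0.705 FPKM, against 2.39 FPKM (q = 0.0111 for Cd226 in the authors' deposited table). Klrd1, the CD94 chain of NK cell receptors for MHC class I, was at 7.21 FPKM in the knockout and 16.7 FPKM in wild type (q = 0.0159 in the authors' deposited table). Klri1, an NK cell receptor gene, was listed at 0 in the knockout and at 0.991 FPKM in wild type, so no fold is given. In the same tissue, 8 of 8 listed T cell markers fell, with a summed level of 46.3 FPKM in the knockout and 129 FPKM in wild type. The part of T cell number in the receptor values was not tested. B cell markers fell too, 4 of 4 listed, with a summed level of 12.4 FPKM in the knockout and 42.9 FPKM in wild type.

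The other CD genes that fell are expressed by epithelium or by several cell types. Cd38, an enzyme that consumes NAD and a surface protein of B cells and many other cells, was at 115 FPKM in the knockout and 384 FPKM in wild type. Cd55, which protects host cells from complement, was at 39.1 FPKM in the knockout and 94.4 FPKM in wild type. Cd2ap, an adaptor that links membrane proteins to actin, was at 21.9 FPKM in the knockout and 82.6 FPKM in wild type.

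Arranged by lineage, 29 of 30 listed neutrophil, monocyte and macrophage receptor genes rose, with a median log2 ratio of 1.61, beside -0.76 for all listed genes. Their summed level was 1819 FPKM in the knockout and 548 FPKM in wild type. The list was of 60 symbols, with alternative names such as Lilrb4 and Lilrb4a counted separately, and its other symbols were not listed by the authors. It held Cd200r1, which rose, while the related Cd200r2, which fell, was in no lineage list. The count of 29 of 30 thus depends on how the list was drawn. Neutrophil markers had a summed level of 5259 FPKM in the knockout and 1284 FPKM in wild type. They did not move as one, since Ly6g was at 146 FPKM in the knockout, against 854 FPKM in wild type, and Ltf at 2.05 FPKM, against 14.4 FPKM. Monocyte and macrophage markers summed to 463 FPKM in the knockout and 26.2 FPKM in wild type over the 4 listed of 12. These 4 were Arg1, Chil3, Marco and Mrc1, and Chil3 alone was at 260 FPKM in the knockout, against 8.55 FPKM in wild type. The other markers, Adgre1, Csf1r and Lyz2 among them, were not listed, so the sum does not stand for the whole list. None of the listed markers of either kind stood at 0. The part of cell number in the rise of the receptors was not tested. Of 16 adaptor and kinase genes of these receptors, 3 were listed and all 3 rose. Fcer1g, the signalling chain shared by Fc receptors and several lectins, was at 382 FPKM in the knockout and 169 FPKM in wild type. The Src-family kinase gene Fgr was at 13.8 FPKM in the knockout and 6.60 FPKM in wild type (q = 0.000694 in the authors' deposited table), and Sla at 41.8 FPKM, against 13.1 FPKM. Of 6 genes of phosphatases and inhibitors that act with inhibitory receptors, 0 were listed. Of 17 ligand genes of the other receptors, 5 were listed, 4 higher and 1 lower. The one that fell, Pglyrp1, encodes a peptidoglycan-binding protein and Trem1 ligand, and it was at 119 FPKM in the knockout, against 712 FPKM in wild type, while Trem1 rose. Pdpn, which encodes a ligand of a platelet lectin, was at 86.8 FPKM in the knockout and 30.2 FPKM in wild type. Of 6 pan-leukocyte marker symbols, among which Cd45 is another name of Ptprc, 0 were listed.

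Of 9 listed epithelial members, 8 fell and Itgb8 rose, with a median log2 ratio of -1.87 and a summed level of 170 FPKM in the knockout and 866 FPKM in wild type. The median fold of the 8 that fell was 3.87, while the 10 pan-epithelial markers fell by a median of 11.5-fold, with a summed level of 553 FPKM in the knockout and 7294 FPKM in wild type. None of these markers stood at 0. The difference between these folds, and the part of epithelial cell number in them, was not tested. Of 14 listed endothelial, platelet and stromal members, 13 rose and Clec3b fell, with a median log2 ratio of 1.31. In the same tissue, 7 of 7 listed endothelial markers rose, with a summed level of 253 FPKM in the knockout and 80.7 FPKM in wild type. The 6 listed dendritic cell members split evenly. Clec10a, Cd80 and Cd300lg rose, and Clec9a, Tlr3 and Tlr12 fell. Cd300lg is in both lists and is also counted among the 14 endothelial, platelet and stromal members.

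**Figure D4:**
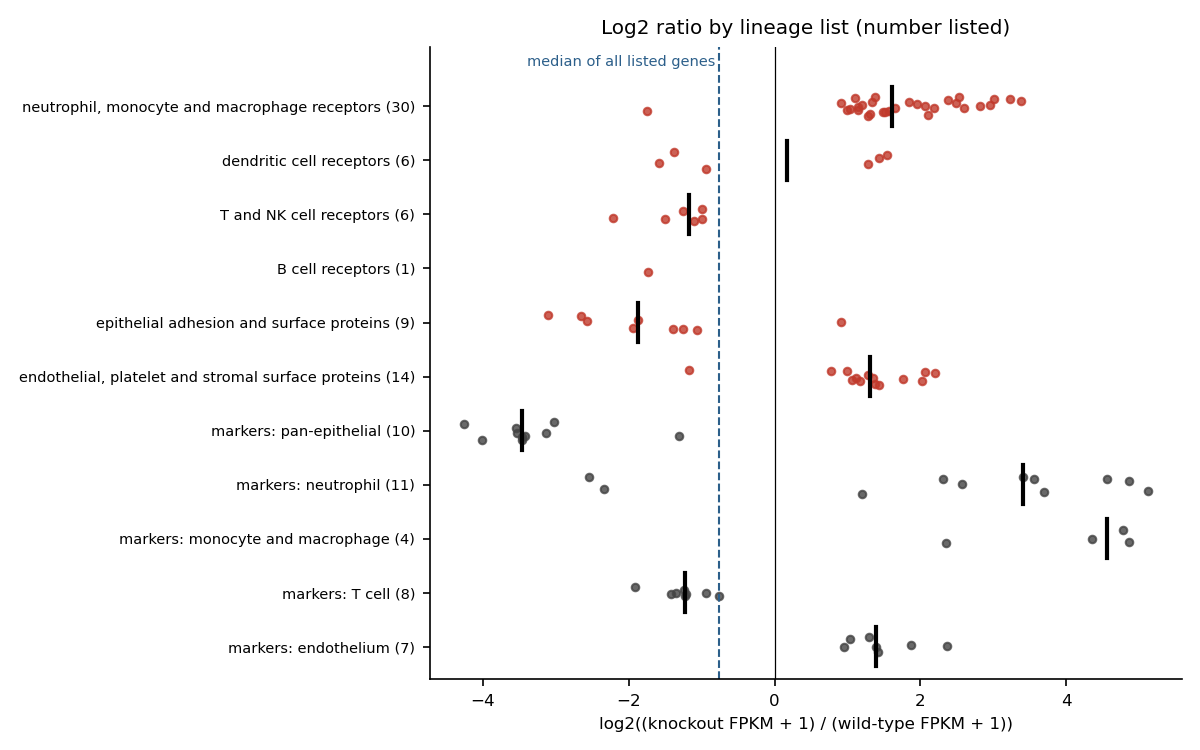
Log2 ratio of knockout over wild-type FPKM, with 1 added to each, for each listed gene of the lineage lists (red) and of marker lists of cells in the tissue (grey), with the number listed in brackets. Black bars give the median of lists with at least 3 genes and the dashed line the median of all listed genes, -0.76. Myeloid and endothelial lists lie to the right, with medians of 1.61 and 1.31, and epithelial and T and NK cell lists to the left.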

How the data were processed

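Gene expression was measured by RNA sequencing of inflamed distal colon, with 2 Elf4 knockout and 2 wild-type samples. The submitters' processing notes list Bowtie 0.12.2, Cufflinks 2.2.1 and mm8, with no role for any of them. The deposited FPKM values are, per the file headers, 1 per gene and genotype; how the authors combined samples is left unstated. Each deposited p-value and q-value comes from the authors' own comparison, and no test was added. With no values per sample, no fit, SD or interval could be computed, and the depth and precision are unknown.

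Every listed row had q of at most 0.05, and the lowest fold among them was about 2. Of 4121 identifiers, 4116 were found in GENCODE M21 on GRCm38, where 4115 overlapped the annotated gene, so coordinates are on GRCm38 and are printed counting from 1. Members were taken by symbol, and the members and lists were chosen with earlier results of these data known. Every member could be named; in the other lists the 3 largest changes with at least 1 FPKM, or every gene of 5 or fewer, could be named. Fermt2, Tnc, Lama3, Lama5, Lamb3, Ly6g and Ltf fall outside that rule and were chosen after their values were seen. Log2 ratios used a pseudocount of 1, which understates changes of low values, and folds used FPKM alone. Counts and medians were tested on simulated data. The alternatives tried were a lower limit on q, a 4-fold limit, minimums of 1 and 5 FPKM, other pseudocounts, centring, unique symbols, leaving out Cd2ap and Clec3b and leaving out uncertain loci. Promoters are from RefSeq on GRCm38. Python 3.11.15, numpy 2.4.6, pandas 2.3.3 and matplotlib 3.10.9 were used.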

Additional observations from a re-analysis of the deposited data

How the results depend on the processing

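No paired analysis was possible because each genotype has a single pooled FPKM value, and for the same reason leaving out each replicate was not run. A shift of over 1.5 times was taken as a move. With at least 4-fold, 19 members were higher and 8 lower. Counts stayed within 1.5 times under the other limits, at 40 to 49 higher and 15 to 21 lower. Centring on the table median turned no member and gave medians of 1.93 for the members, 1.95 for C-type lectins, 2.82 for Siglecs, 1.90 for Fc gamma receptors, 2.32 for Lilr and Pir, 2.03 for CD300, 0.81 for Toll-like receptors, 2.11 and -0.074 for integrin alpha and beta chains, 1.77 for other CD genes, and 2.36, 0.92, -0.42, -1.11 and 2.07 for the myeloid, dendritic, T and NK cell, epithelial and endothelial lists. With at least 5 FPKM the Toll-like receptor median was 1.49, that of integrin beta chains -2.58 and that of the dendritic list 1.35. The dendritic median, 0.17, was -0.021 and -0.016 with pseudocounts of 0.1 and 0, and 1.27 without uncertain loci, a choice made after seeing the data, so it has no direction. Without those loci the integrin alpha median was -0.036, since 3 chains that rose were left out. The T and NK cell median was -1.96 with a pseudocount of 0.1. Depth is unknown, and 12 members were under 5 FPKM in both genotypes.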
